A study of Homo sapiens with 29 samples.

Results

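Imprinted growth genes were followed in LHCN-M2 human myoblasts in which the transcription factor ZNF148 was knocked down. The genes are H19, MEG3, DLK1, PEG3, PEG10, MEST, PLAGL1 and GRB10, chosen by name as well-known imprinted regulators of growth. No array value entered the rule, but it was set with earlier results of these data known. Through the RefSeq accession given for each probe on the arrays, 17 of 58201 probes were assigned to these 8 genes, with 6 probes for MEG3, 2 each for H19, DLK1, PEG3 and GRB10, and 1 each for PEG10, MEST and PLAGL1. LHCN-M2 is a line of human skeletal myoblasts immortalized with telomerase and CDK4. The cells received 20 nM ZNF148 siRNA or 20 nM nontargeting siRNA, and both arms were collected after 24, 48 and 96 h in growth media and after 48 and 96 h in differentiation media, which gave 10 groups and 29 arrays. The labels call the arrays of a group biological replicates, of which the 96 h controls in growth media had 2 and every other group 3. The study describes the cells in growth media as subconfluent at 24 h and confluent at 48 and 96 h. In its protocol differentiation media were put on 2 days after transfection. The same hour in both media may therefore not be the same time since transfection. The hours are those of the labels, while the names of the deposited arrays carry a 1 and a 3 where the labels say 48 and 96 h, so the zero point of the hours is not settled. Whether the siRNA was a pool or a single sequence is not given for these arrays, and nothing in the data separates the maternal from the paternal allele.

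Imprinted genes are transcribed mainly from the chromosome inherited from one parent, under the control of differentially methylated regions shared by neighbouring genes. Many act on fetal growth, and paternally expressed genes such as DLK1, PEG3, PEG10, MEST and PLAGL1 are often set against maternally expressed ones such as H19 and MEG3. In skeletal muscle, H19 and the DLK1-MEG3 domain are known for high expression in fetal and regenerating tissue, and IGF2, the neighbour of H19, is a growth factor that myoblasts secrete as they differentiate.

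RefSeq promoter windows (GRCh38.p14, 250 bases before to 50 bases after a transcription start) were at hand for 5 of the 8 genes, in 19 windows. The H19 window and the first of 3 overlapping MEG3 windows are shown whole. Of MEST and GRB10, the bases before the start are shown for the window with the most matches of each to a searched motif. Capitals mark CCCTCCC, a C-rich run of the kind ZNF148 is known to bind, read on either strand (its reverse is GGGAGGG). The H19 window lies at chr11:2001217-2001516 on the minus strand, the MEG3 window at chr14:100825858-100826157 on the plus strand, the MEST stretch at chr7:130491808-130492057 on the plus strand and the GRB10 stretch at chr7:50793454-50793703 on the minus strand.
H19 promoter: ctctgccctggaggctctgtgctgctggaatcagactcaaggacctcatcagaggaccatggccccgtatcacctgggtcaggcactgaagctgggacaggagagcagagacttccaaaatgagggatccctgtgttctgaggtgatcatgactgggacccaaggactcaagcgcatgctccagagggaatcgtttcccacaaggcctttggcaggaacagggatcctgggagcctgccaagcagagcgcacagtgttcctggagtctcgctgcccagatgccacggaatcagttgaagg
MEG3 promoter: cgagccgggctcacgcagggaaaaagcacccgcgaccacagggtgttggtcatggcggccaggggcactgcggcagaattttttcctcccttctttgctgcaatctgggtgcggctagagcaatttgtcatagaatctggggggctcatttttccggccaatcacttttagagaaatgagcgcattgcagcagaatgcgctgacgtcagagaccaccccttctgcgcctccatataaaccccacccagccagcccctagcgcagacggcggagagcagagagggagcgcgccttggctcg
MEST promoter, before the start: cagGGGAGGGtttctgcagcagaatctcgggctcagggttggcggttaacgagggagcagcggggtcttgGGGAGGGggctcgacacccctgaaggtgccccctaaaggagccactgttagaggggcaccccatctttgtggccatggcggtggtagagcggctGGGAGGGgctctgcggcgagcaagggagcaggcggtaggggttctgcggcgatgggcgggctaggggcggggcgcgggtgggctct
GRB10 promoter, before the start: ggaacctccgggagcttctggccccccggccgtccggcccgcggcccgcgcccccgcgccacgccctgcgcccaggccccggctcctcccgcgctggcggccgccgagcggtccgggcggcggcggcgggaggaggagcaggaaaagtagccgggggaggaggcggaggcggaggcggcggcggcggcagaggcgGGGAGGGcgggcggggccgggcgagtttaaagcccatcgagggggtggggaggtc
The MEST stretch held 3 matches to CCCTCCC and the GRB10 stretch 1, and these stretches were picked for holding the most. Of the 19 windows 3 held a match, 2 of the 5 of MEST and 1 of the 5 of GRB10, and none of H19, MEG3 or PLAGL1 did. The 2 MEST windows overlap, and the matches of the second also lie in the first. CCCTCCC was found in 26.55% of all 35116 promoter windows, and in some window of 29.41% of all 27305 genes. The E-box CAGCTG of myogenic factors, found in 17.95% of all windows, occurred in 1 of the 19 windows, a MEST window in which it lay 39 bases past the start. The MEF2 motif, a CTA set 4 bases ahead of a TAG, found in 2.731% of all windows, occurred in none of the 19. These are matches of letters in short windows, and no binding was measured.

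Signals are given as the authors' log2 values, quantile-normalized over all arrays. A difference is called where limma's adjusted p, by Benjamini-Hochberg over the 38839 probes tested, was under 0.05 and the change was more than 2-fold, which is a log2 difference over 1. Unless another probe is named, values of a gene are those of its brightest tested probe. The share of probes well above background ran from 41.6% to 56.5% over the arrays. The ZNF148 probe was lower with ZNF148 siRNA at every time point, by log2 differences from -1.53 at 24 h to -2.74 at 96 h in differentiation media. One library stood apart from its group. On replicate 1 of nontargeting siRNA at 48 h in growth media, the muscle creatine kinase gene CKM stood at 16.03, against 5.83 and 5.91 on the other arrays of that group, while its ZNF148 signal of 8.52 was close to their 8.85 and 9.18. For the 8 genes, differences between siRNAs at 48 h in growth media are therefore given with and without it, and for other genes where the value moved by over 1.5 times. The 24 h cells shared a slide and a scan that held no other cells, so slide and hour cannot be told apart between 24 h and the later times, while within each time point both siRNAs were on the same slide or slides for at least part of the arrays.

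The 10 myoblast and muscle markers looked at (MYOD1, MYF5, DES, NCAM1, CDH15, MYOG, CKM, MYH3, ACTA1 and TNNC2) all had a tested probe, and at 24 h CKM was below background on every array and MYOG on those with ZNF148 siRNA. Their mean log2 signal lay between 8.82 and 8.97 on the control arrays at 24 h and between 8.98 and 9.02 with ZNF148 siRNA. At 48 h in growth media it was 10.43 to 15.12 in controls and 16.01 to 16.02 with ZNF148 siRNA, and at 96 h in differentiation media it was 14.49 to 14.65 and 16.12 to 16.16. Of 4 fibroblast markers, 2 were called lower from 48 h on in each comparison between siRNAs. Of 4 endothelial markers, 1 was called lower at 48 h in growth media and 2 in each later comparison, and 1 was called higher at 96 h in differentiation media. Of 3 epithelial markers none was above background on all arrays of any group, although 1 was called higher at 96 h in growth media and at both times in differentiation media. Of 5 adipocyte markers, 1 was called higher at 24 h and 1 lower at both times in differentiation media. Of 3 blood markers only 2 had a probe that could be named. None was called by limma, and at most 1 had an adjusted p under 0.05 in any of these comparisons. Muscle markers thus moved with the knockdown from 48 h on, in step with several results that follow, and their part in those results was not tested. In RNA from whole cultures, fewer cells of a type and less RNA per cell cannot be told apart.

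H19, MEG3, PEG10, MEST, PLAGL1 and GRB10 were well above background on 29 of 29 arrays with every probe. DLK1 was so on 29 arrays with one probe and on 16 with the other, and PEG3 on 11 and 2 arrays. No spot of these probes was saturated or marked as an outlier.

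H19, a noncoding RNA that also carries the precursor of miR-675, was higher with ZNF148 siRNA in growth media at each time and not in differentiation media. At 24 h its log2 signal was 15.20, 15.10 and 15.11 in controls and 15.92, 16.12 and 16.07 with ZNF148 siRNA. In the same media it was 16.97, 16.62 and 16.57 against 17.47, 17.56 and 17.77 at 48 h, and 17.19 and 17.20 against 17.99, 17.93 and 17.99 at 96 h. The arms did not overlap at any of these times, and the log2 differences were 0.90 (SE 0.09, limma adjusted p = 2.3e-07), 0.88 (SE 0.09, limma adjusted p = 6.2e-08) and 0.77 (SE 0.10, limma adjusted p = 1.9e-06). None reached 2-fold, so none was called. Without the control array that stood apart, the difference at 48 h was 1.00 and just past 2-fold (limma adjusted p = 1.6e-09).

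In differentiation media H19 was high in both arms. Its log2 signal at 48 h was 17.75, 17.58 and 17.51 in controls and 17.52, 17.47 and 17.49 with ZNF148 siRNA, a difference of -0.12 (limma adjusted p = 0.31). At 96 h it was 17.96, 17.91 and 17.97 against 17.88, 17.87 and 17.75, a difference of -0.11 (limma adjusted p = 0.35). The lowest of all groups were the 24 h controls, with a mean of 15.14 ± 0.06 (SD, n = 3), and the highest was ZNF148 siRNA at 96 h in growth media, with 17.97 ± 0.03 (SD, n = 3), from which controls at 96 h in differentiation media, at 17.95 ± 0.03 (SD, n = 3), differed by less than these SDs. The H19 probe ranked between rank 46 and rank 729 of the 58201 probes of an array. Its second probe gave the same directions in growth media, with log2 differences from 0.84 to 0.96.

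**Figure D1:**
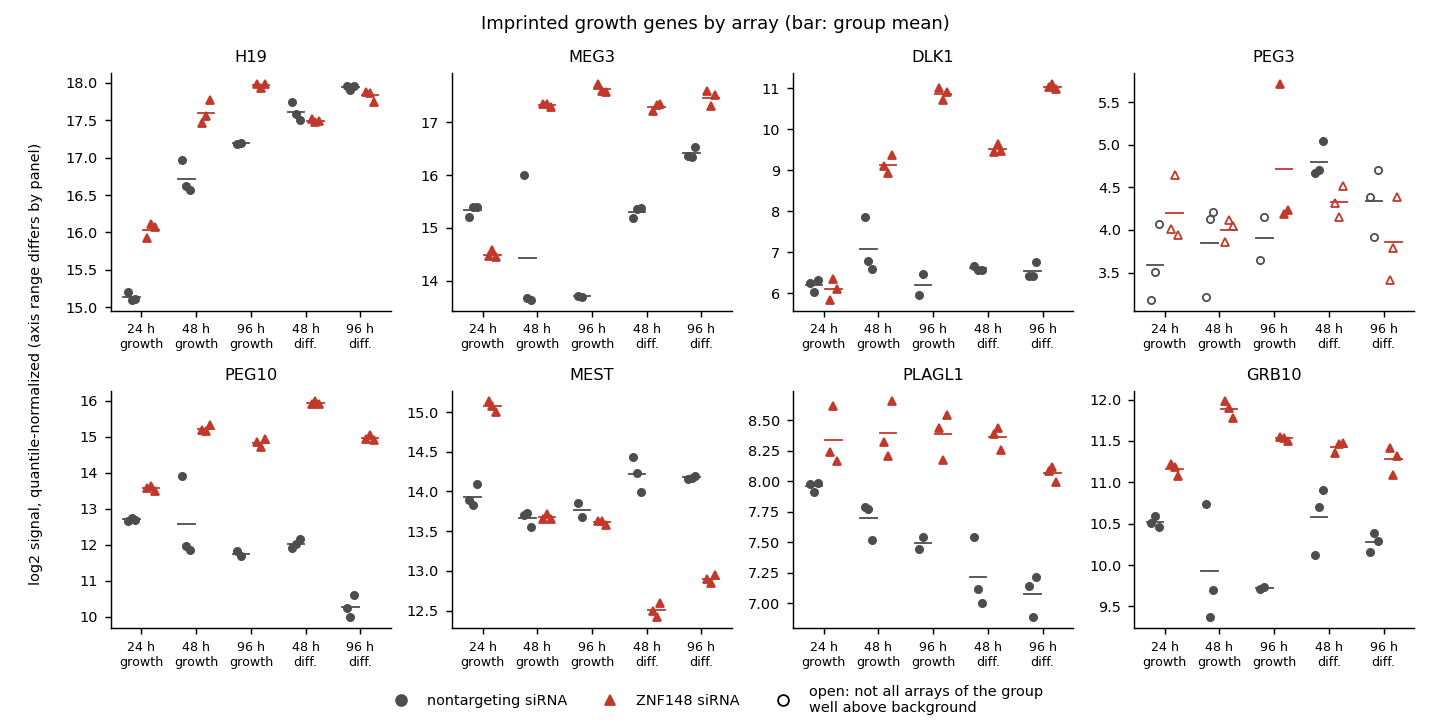
Log2 signal of each imprinted growth gene (vertical axis, its range set per panel) on each of the 29 arrays, by hours and media (horizontal axis). Circles are nontargeting siRNA, triangles ZNF148 siRNA, bars group means, and open symbols mark groups in which not every array was well above background. With the probe shown, the brightest of each gene, MEG3, DLK1, PEG10 and GRB10 are higher with ZNF148 siRNA from 48 h on. At 24 h MEG3 is lower and PEG10, GRB10 and MEST are higher without overlap, and MEST is lower in differentiation media. Control replicate 1 at 48 h in growth media lies above its group in MEG3, DLK1, PEG10 and GRB10.

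MEG3, the noncoding RNA of the DLK1-MEG3 domain, was lower with ZNF148 siRNA at 24 h, by less than 2-fold and not called. It was much higher at 48 and 96 h in growth media. In differentiation media its brightest probe rose less, and its probes did not all move the same way. Its brightest probe, for NR_002766, stood at 15.21, 15.39 and 15.40 in 24 h controls and at 14.47, 14.58 and 14.45 with ZNF148 siRNA. At 48 h in growth media it was 16.01, 13.67 and 13.64 in controls, the first being the array that stood apart, against 17.34, 17.33 and 17.29. At 96 h it was 13.72 and 13.69 against 17.72, 17.58 and 17.57. The arms did not overlap at any of the 3 times.

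The log2 difference was -0.83 (SE 0.36, limma adjusted p = 0.10) at 24 h, 2.88 (SE 0.36, limma adjusted p = 6.6e-07) at 48 h and 3.92 (SE 0.40, limma adjusted p = 4.9e-08) at 96 h in growth media, the last a 15.1-fold rise. In the fit without the control array that stood apart, the spread of this probe was smaller, and the difference at 24 h was again -0.83, now with a limma adjusted p of 8.6e-08 but still under 2-fold, and that at 48 h was 3.66 (limma adjusted p = 9.0e-18). In differentiation media controls themselves were higher. MEG3 was 15.19, 15.36 and 15.38 in controls at 48 h against 17.21, 17.32 and 17.34, a rise of 1.98 (SE 0.36, limma adjusted p = 5.6e-05). At 96 h it was 16.36, 16.34 and 16.53 against 17.58, 17.29 and 17.52, a rise of 1.05 (SE 0.36, limma adjusted p = 0.018). This was no longer called without replicate 1 of ZNF148 siRNA in that group (1.00, limma adjusted p = 0.051). In the fit without the control array that stood apart, which is in neither group, the rise was again 1.05 (limma adjusted p = 4.7e-10).

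The other MEG3 probes, which the arrays assign to other RefSeq transcripts of the gene, did not all move alike. At 24 h the log2 difference was below 0 for all 6 probes, and for 4 of the 5 others it had a limma adjusted p under 0.05, the lowest difference being -0.97 (limma adjusted p = 3.4e-07) at the NR_046473 probe. At 48 and 96 h in growth media all 6 were higher with ZNF148 siRNA, but by very different amounts. At 96 h the NR_046466 probe rose by 4.65 on the log2 scale, from 7.97 and 7.92 to 12.79, 12.41 and 12.57, while one NR_033359 probe differed by 0.99 and the NR_046473 probe by 1.09. In differentiation media the probes went apart. The NR_046466 probe stood at 9.52, 9.38 and 9.48 in controls at 48 h and at 12.25, 12.44 and 12.39 with ZNF148 siRNA, a rise of 2.90 (SE 0.46, limma adjusted p = 1.2e-05). One of both NR_033359 probes fell there, from 8.70, 9.08 and 9.50 to 8.07, 7.90 and 7.86, by -1.15 (SE 0.14, limma adjusted p = 2.3e-07). At 96 h the NR_046473 probe fell, from 11.85, 11.72 and 12.08 to 10.696, 10.64 and 10.51, by -1.27 (SE 0.10, limma adjusted p = 1.0e-09). None of these groups overlapped between arms. With the mean of all MEG3 probes in place of the brightest, the difference in differentiation media was 0.52 (limma adjusted p = 0.023) at 48 h and 0.06 (limma adjusted p = 0.86) at 96 h, and neither was called.

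**Figure D2:**
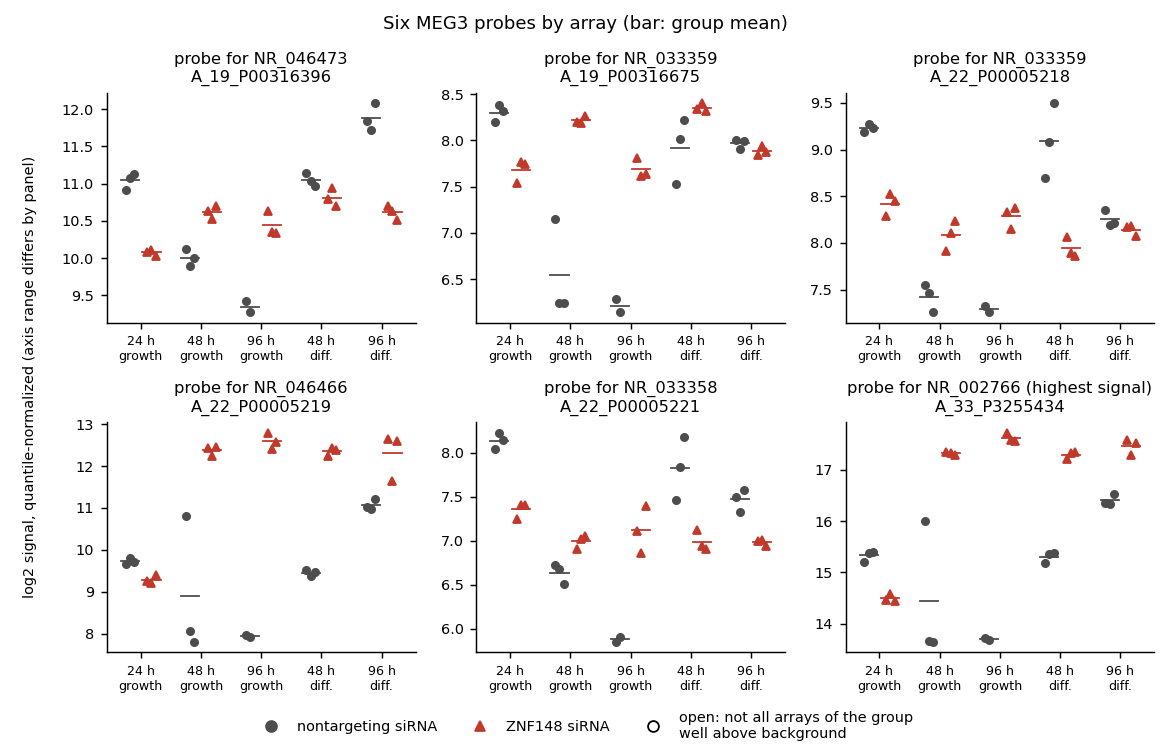
Log2 signal of the 6 MEG3 probes (vertical axis, its range set per panel) on each array, by hours and media (horizontal axis), each panel named by the RefSeq transcript the array assigns and by the probe. Circles are nontargeting siRNA, triangles ZNF148 siRNA and bars group means. All 6 probes are lower with ZNF148 siRNA at 24 h and higher at 96 h in growth media, and they part in differentiation media.

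DLK1, a paternally expressed transmembrane protein of the Delta family that modulates Notch signalling and is shed by ADAM17, was low in controls and rose with ZNF148 siRNA at every time from 48 h on. With the probe that was above background throughout, its log2 signal at 24 h was 6.26, 6.03 and 6.31 in controls and 5.84, 6.35 and 6.10 with ZNF148 siRNA. These overlapped, with a difference of -0.10 (SE 0.23, limma adjusted p = 0.85). In growth media it was 7.86, 6.78 and 6.59 against 9.11, 8.93 and 9.37 at 48 h, and 5.95 and 6.47 against 10.996, 10.72 and 10.90 at 96 h. In differentiation media it was 6.67, 6.57 and 6.56 against 9.43, 9.64 and 9.48 at 48 h, and 6.41, 6.42 and 6.76 against 11.02, 11.10 and 10.98 at 96 h. The arms did not overlap at these 4 time points. The rise was 2.06 (SE 0.23, limma adjusted p = 1.3e-07) at 48 h and 4.66 (SE 0.25, limma adjusted p = 3.7e-12), or 25.3-fold, at 96 h in growth media. It was 2.92 (SE 0.23, limma adjusted p = 3.0e-10) and 4.50 (SE 0.23, limma adjusted p = 7.7e-13) in differentiation media. Without the control array that stood apart, the rise at 48 h in growth media was 2.45 (limma adjusted p = 6.9e-11).

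The second DLK1 probe was below background in 24 h cells of both arms, in controls at 96 h in growth media and in controls at 48 h in differentiation media. With ZNF148 siRNA it stood at 13.71, 13.45 and 13.62 at 96 h in growth media, at least 717-fold above the lowest signal that counts as above background (limma adjusted p = 4.0e-07). At 48 h in differentiation media it stood at 11.93, 12.25 and 11.87, at least 267-fold above it (limma adjusted p = 1.7e-06). In growth media at 48 h it was 9.83, 2.06 and 2.38 in controls against 11.75, 11.52 and 11.86, so that only the array that stood apart had a measured control signal. The arms of this probe did not overlap at any of the 3. At 96 h in differentiation media the controls were all above background, at 6.02, 6.16 and 7.80, against 13.83, 13.82 and 13.63 with ZNF148 siRNA, a rise of 7.10 (SE 1.19, limma adjusted p = 3.5e-05).

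PEG10, a paternally expressed gene derived from a retrotransposon and needed in the placenta, rose with ZNF148 siRNA from 48 h on. At 24 h its log2 signal was 12.65, 12.75 and 12.70 in controls and 13.58, 13.63 and 13.49 with ZNF148 siRNA, a difference of 0.87 (SE 0.31, limma adjusted p = 0.051). By 48 h in growth media it was 13.90, 11.96 and 11.86 against 15.20, 15.15 and 15.33, and at 96 h 11.81 and 11.68 against 14.84, 14.70 and 14.95. The rises were 2.65 (SE 0.31, limma adjusted p = 3.7e-07) and 3.08 (SE 0.35, limma adjusted p = 2.6e-07), with no overlap of the arms. Without the control array that stood apart the rise at 48 h was 3.32 (limma adjusted p = 7.2e-15), and the 24 h difference was again 0.87 (limma adjusted p = 4.9e-06) and under 2-fold. In differentiation media the gap was wider. PEG10 was 11.89, 12.01 and 12.17 in controls at 48 h against 15.90, 15.97 and 15.91, a rise of 3.91 (SE 0.31, limma adjusted p = 5.6e-10). At 96 h it was 10.24, 9.99 and 10.61 against 14.94, 15.05 and 14.90, a 25.7-fold rise (log2 4.69, SE 0.31, limma adjusted p = 6.5e-11). Controls at 96 h in differentiation media had the lowest PEG10 signal of the 10 groups, below every other array.

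MEST, a paternally expressed gene of the alpha/beta hydrolase fold and a marker of mesoderm, changed direction between conditions. At 24 h it was 13.89, 13.82 and 14.09 in controls and 15.13, 15.08 and 15.002 with ZNF148 siRNA, a rise of 1.14 (SE 0.09, limma adjusted p = 8.0e-09) without overlap. The arms overlapped at 48 h in growth media, at 13.71, 13.72 and 13.56 against 13.65, 13.72 and 13.65, with a difference of 0.01 (SE 0.09, limma adjusted p = 0.96), or 0.03 without the control array that stood apart (limma adjusted p = 0.85). At 96 h in growth media they stood at 13.85 and 13.67 against 13.63, 13.63 and 13.57, a difference of -0.16 (SE 0.10, limma adjusted p = 0.25). In differentiation media MEST fell with ZNF148 siRNA. It was 14.44, 14.24 and 13.99 in controls at 48 h against 12.49, 12.42 and 12.60, a fall of -1.72 (SE 0.09, limma adjusted p = 6.2e-13). At 96 h it was 14.16, 14.17 and 14.20 against 12.90, 12.84 and 12.94, a fall of -1.28 (SE 0.09, limma adjusted p = 1.5e-10). The order of the 10 groups ran from 12.50 ± 0.09 with ZNF148 siRNA at 48 h in differentiation media to 15.07 ± 0.07 with ZNF148 siRNA at 24 h (SD, n = 3 each), so both ends were knockdown groups.

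GRB10 encodes an adaptor that binds the insulin and IGF1 receptors and dampens their signalling. Its log2 signal at 24 h was 10.51, 10.59 and 10.46 in controls and 11.23, 11.19 and 11.08 with ZNF148 siRNA, a difference of 0.64 (SE 0.22, limma adjusted p = 0.041) without overlap but under 2-fold. By 48 h in growth media it was 10.73, 9.37 and 9.70 against 11.98, 11.90 and 11.78, and at 96 h 9.71 and 9.74 against 11.55, 11.54 and 11.50. The rises were 1.95 (SE 0.22, limma adjusted p = 2.4e-07) and 1.81 (SE 0.25, limma adjusted p = 3.5e-06), with no overlap. Without the control array that stood apart the former was 2.35 (limma adjusted p = 5.7e-11). In differentiation media the result depended on the probe. Both probes were nearly as bright, with means of 10.87 and 10.86 over all arrays. With the brighter probe the difference was 0.85 (SE 0.22, limma adjusted p = 0.0025) at 48 h and 1.00 (SE 0.22, limma adjusted p = 7.7e-04) at 96 h, the latter just under 2-fold. With the second GRB10 probe, controls at 48 h stood at 9.38, 9.64 and 9.64 and ZNF148 siRNA at 11.73, 11.79 and 11.78, a rise of 2.21 (SE 0.21, limma adjusted p = 1.0e-08), and the rise at 96 h was 2.04 (SE 0.21, limma adjusted p = 5.9e-08). With the mean of both probes GRB10 was called higher at both times, at 1.53 and 1.52. The brighter probe also passed 2-fold at 48 h without control replicate 3 (1.02), and at 96 h without control replicate 2 or 3 (1.05 and 1.00) or ZNF148 siRNA replicate 2 (1.09). It did so too at 96 h with slide as a block (1.05) and normexp background correction (1.03), and at 48 h with 75th percentile scaling (1.0002).

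PLAGL1, a paternally expressed zinc finger transcription factor that can arrest the cell cycle, was higher with ZNF148 siRNA from 48 h on, mostly by less than 2-fold. Its log2 difference was 0.38 (limma adjusted p = 0.063) at 24 h, 0.70 (limma adjusted p = 3.5e-04) at 48 h and 0.89 (limma adjusted p = 9.7e-05) at 96 h in growth media, and 1.14 (SE 0.14, limma adjusted p = 5.8e-07) at 48 h and 0.99 (SE 0.14, limma adjusted p = 6.5e-06) at 96 h in differentiation media. Of these, only the one at 48 h in differentiation media was called. The difference at 48 h in growth media was 0.75 without the control array that stood apart (limma adjusted p = 6.6e-04). At 48 h in differentiation media the arrays read 7.54, 7.12 and 7.001 in controls and 8.39, 8.44 and 8.26 with ZNF148 siRNA. The arms did not overlap in any of the 5 comparisons. The ZNF148 siRNA means stayed between 8.07 and 8.39. The control means lay between 7.08 in differentiation media at 96 h and 7.96 at 24 h. With normexp background correction the difference at 48 h in differentiation media was 0.90 and not called, and PLAGL1 at 96 h crossed 2-fold when replicate 1 or 3 of its controls (1.02 and 1.05) or replicate 3 of ZNF148 siRNA (1.02) was left out.

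PEG3, a paternally expressed zinc finger gene, was at or near background, which limits what can be said of it. Its brighter probe was well above background on all arrays of only 2 groups, ZNF148 siRNA at 96 h in growth media, with 5.72, 4.19 and 4.23, and controls at 48 h in differentiation media, with 4.67, 4.70 and 5.04. Its differences between siRNAs ran from -0.48 to 0.81 with limma adjusted p from 0.12 to 0.79, and none was called. The difference at 48 h in growth media was -0.17 without the control array that stood apart (limma adjusted p = 0.79).

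Counted together, 1 of the 8 genes was called higher with ZNF148 siRNA and 0 lower at 24 h, where 5.47% of the 18432 genes tested were called in either direction, 2.44% higher and 3.03% lower. By 48 h in growth media 4 were higher and 0 lower, where 23.9% of all genes were called, 11.7% higher and 12.2% lower. At 96 h in growth media 4 were again higher and 0 lower, where 24.7% were called, 12.3% higher and 12.4% lower. In differentiation media 4 were higher and 1 lower at 48 h, where 32.3% were called, 15.0% higher and 17.2% lower. The counts at 96 h were 3 higher and 1 lower, where 23.2% were called, 10.4% higher and 12.8% lower. The genes called higher were MEST at 24 h, then MEG3, DLK1, PEG10 and GRB10 at both later times in growth media, MEG3, DLK1, PEG10 and PLAGL1 at 48 h and MEG3, DLK1 and PEG10 at 96 h in differentiation media. The gene called lower was MEST. In differentiation media GRB10 was not called with its brighter probe, but its second probe was called higher at both times. With the mean of its probes MEG3 was not called there at 48 h (0.52) or 96 h (0.06). PLAGL1 at 48 h in differentiation media was not called with normexp background correction (0.90). The median log2 difference of the 8 was 0.63 at 24 h, 1.42 and 1.35 at 48 and 96 h in growth media, and 1.00 and 0.99 in differentiation media, where that of all tested genes lay between -0.06 and 0.00 in each comparison. The arms did not overlap for 6, 6, 8, 7 and 7 of the 8 genes in these comparisons, and for 55.4%, 62.7%, 74.9%, 70.0% and 65.3% of all genes. With the control array that stood apart left out, 5 were called higher at 48 h in growth media, H19 being the added one, with 27% of all genes called.

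**Figure D3:**
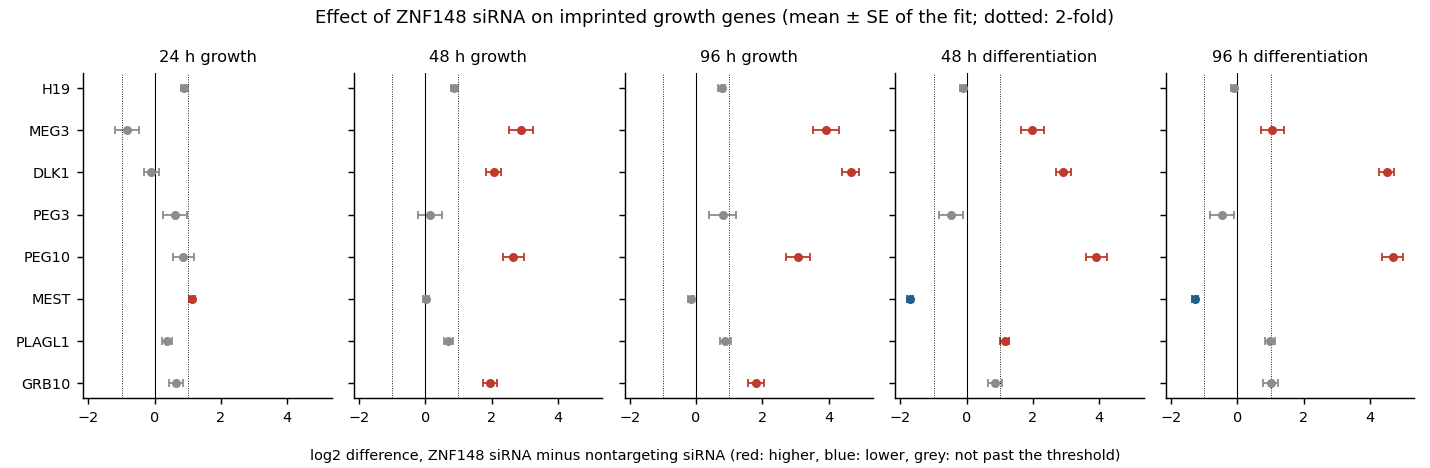
Log2 difference between ZNF148 siRNA and nontargeting siRNA (horizontal axis) for each gene (vertical axis) in the 5 conditions, with the standard error of the limma fit as bars. Red points were called higher, blue points lower and grey points were not called, and dotted lines mark 2-fold. DLK1 and PEG10 reach 4.50 and 4.69 at 96 h in differentiation media, and MEST lies at -1.72 and -1.28 in differentiation media.

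Differentiation media and time were compared within each siRNA. These comparisons use the same arrays as those between siRNAs, so they are not independent of them. In cells with nontargeting siRNA, 0 of the 8 genes were called by limma between media at 48 h, where 15.9% of all genes were, although 4 were higher and 1 lower at an adjusted p under 0.05 alone, as were 49.3% of all genes in either direction, and 7 had an unadjusted p under 0.05. Without the control array that stood apart 3 were called higher there, with 17.6% of all genes called, namely MEG3 by 1.65, GRB10 by 1.04 and H19 by 1.02. The second GRB10 probe stood at -0.16 there (limma adjusted p = 0.13). PEG3 was well above background on 1 of the 3 control arrays in growth media, so no size is given for it. At 96 h MEG3 was higher in differentiation media by 2.70 (SE 0.40, limma adjusted p = 1.3e-05) and PEG10 lower by -1.47 (SE 0.35, limma adjusted p = 0.0022), where 15.1% of all genes were called. H19 and MEST were higher there by 0.75 and 0.41 (limma adjusted p = 4.8e-06 and 0.0028), both under 2-fold. For DLK1 the result depended on the probe. Its second probe was below background in controls at 96 h in growth media and above it in differentiation media. In the fit without the control array that stood apart it was called higher (limma adjusted p = 9.5e-08). The first probe differed by 0.32 in that fit (limma adjusted p = 0.14). In cells with ZNF148 siRNA, MEST was the gene called between media, lower at 48 h by -1.17 (SE 0.09, limma adjusted p = 1.4e-08), where 3.96% of all genes were called. At 96 h 0 were called by limma, where 6.40% of all genes were and 3 of the 8 had an unadjusted p under 0.05, and MEST was lower by -0.72 (limma adjusted p = 4.9e-06).

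From 48 to 96 h 0 of the 8 were called by limma in controls in growth media, where 0.445% of all genes were and 3 of the 8 had an unadjusted p under 0.05, and H19 was higher by 0.47 (limma adjusted p = 0.019). Again 0 were called by limma without the control array that stood apart, where 1.71% of all genes were. H19 was higher by 0.60 in that fit (limma adjusted p = 2.6e-04). In controls in differentiation media MEG3 rose by 1.101 (SE 0.36, limma adjusted p = 0.021) and PEG10 fell by -1.75 (SE 0.31, limma adjusted p = 1.5e-04), where 9.91% of all genes were called. The MEG3 call was lost without replicate 1 of the 48 h controls (1.04, limma adjusted p = 0.059) and without replicate 3 of the 96 h controls (1.04, limma adjusted p = 0.064). The control array that stood apart is in neither group but widens the shared spread of this probe. Without that array the MEG3 rise was again 1.101, with an SE of 0.08 (limma adjusted p = 8.8e-10). It fell short of 2-fold with slide as a block (0.98), with 75th percentile scaling (0.99) and with the mean of the MEG3 probes (0.40). With ZNF148 siRNA DLK1 rose further, by 1.73 (SE 0.23, limma adjusted p = 6.7e-06) in growth and 1.51 (SE 0.23, limma adjusted p = 2.3e-05) in differentiation media, where 5.94% and 8.04% of all genes were called. PEG10 differed by -0.97 (limma adjusted p = 0.025) in the latter, and passed 2-fold without replicate 2 of ZNF148 siRNA at 96 h (-1.01, limma adjusted p = 0.046). The second DLK1 probe was higher in controls at 96 h than at 48 h in differentiation media, by at least 6.49-fold (limma adjusted p = 0.036), while the first, above background on every array, differed by -0.07 (limma adjusted p = 0.89).

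The effect of ZNF148 siRNA itself differed between times for 5 of the 8 genes and between media for 3 at each hour, tested as a difference of differences in the same fit. Against 24 h, the effect at 48 h in growth media was larger for MEG3 by 3.71, DLK1 by 2.16, PEG10 by 1.79 and GRB10 by 1.31, and smaller for MEST by -1.13 (limma adjusted p from 5.7e-07 to 0.0029), where 20.5% of all genes were called. The same 5 were called without the control array that stood apart, with 4.50 for MEG3, 2.56 for DLK1, 2.45 for PEG10, 1.708 for GRB10 and -1.104 for MEST (limma adjusted p from 1.9e-16 to 1.3e-06). In that fit 23.6% of all genes were called. At 96 h the same 5 genes were called in the same directions, with 4.75, 4.77, 2.21, 1.16 and -1.29 (limma adjusted p from 5.3e-10 to 0.0088), where 22.7% of all genes were called. Between media at 48 h the effect in differentiation media was lower than in growth media for MEST by -1.73 (limma adjusted p = 9.8e-10) and for GRB10 by -1.097 (limma adjusted p = 0.0099), and higher for PEG10 by 1.25 (limma adjusted p = 0.035), where 17.1% of all genes were called. H19 differed by -0.9995 (limma adjusted p = 2.6e-06), at the edge of 2-fold, and DLK1 by 0.86 (limma adjusted p = 0.045), which passed 2-fold without control replicate 2 or 3 in growth media (1.01 and 1.101). Leaving out any 1 array kept the MEST call. The GRB10 call was lost without control replicates 2 or 3 in growth media (-0.82 and -0.98) or replicate 3 in differentiation media (-0.93), and with the second GRB10 probe the difference was 0.08. MEG3 was called too without the control array that stood apart, at -1.68 (limma adjusted p = 6.5e-10), as was H19 at -1.12 (limma adjusted p = 6.9e-08), GRB10 stood at -1.50 and MEST at -1.75, DLK1 at 0.47 (limma adjusted p = 0.12), and PEG10, at 0.59 (limma adjusted p = 0.0090), was not called. The fit without that array called 18.4% of all genes in this comparison. With all arrays MEG3 stood at -0.90 (limma adjusted p = 0.205). PEG10 also missed the threshold, with a limma adjusted p between 0.055 and 0.069, without replicate 1 or 2 of ZNF148 siRNA in growth media, without replicate 1 or 2 of the controls in differentiation media or without any 1 of the 3 ZNF148 siRNA arrays there. At 96 h the effect was lower in differentiation media for MEG3 by -2.86 (limma adjusted p = 3.8e-04) and MEST by -1.13 (limma adjusted p = 2.8e-06) and higher for PEG10 by 1.61 (limma adjusted p = 0.016), where 12.4% of all genes were called. The last was lost without replicate 1 of the 96 h controls in growth media (1.54), a fit with 1 array in that group. Without the control array that stood apart, which is in none of the 96 h groups, the PEG10 difference was again 1.61 (limma adjusted p = 3.0e-07).

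Other imprinted genes and neighbours in the same or adjoining domains were looked at from a list of 60, of which 46 had a tested probe. With ZNF148 siRNA 2 of the 46 were called higher and 2 lower at 24 h. In growth media 15 were higher and 6 lower at 48 h, then 16 higher and 2 lower at 96 h. In differentiation media the counts were 15 higher with 7 lower at the former hour, and 12 higher with 5 lower at the latter, to be read against the shares of all genes given above. Their median log2 difference was -0.16, 0.29 and 0.52 in growth media and 0.27 and 0.14 in differentiation media. Leaving out the control array that stood apart gave 16 higher and 7 lower at 48 h in growth media.

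On the chromosome arm of H19, in the adjoining domain of KCNQ1OT1, CDKN1C, an inhibitor of cyclin-dependent kinases, rose in growth media by 3.35 (SE 0.64, limma adjusted p = 4.6e-04) at 24 h, 4.18 (SE 0.64, limma adjusted p = 1.2e-05) at 48 h and 3.15 at 96 h. The rise at 48 h without the control array that stood apart was 5.58 (limma adjusted p = 1.3e-15). It stood at 0.18 (limma adjusted p = 0.87) and -1.13 (limma adjusted p = 0.16) in differentiation media, where controls had reached means of 15.01 and 17.67. IGF2, the growth factor gene next to H19, rose by 1.60 (SE 0.25, limma adjusted p = 1.5e-05) at 48 h and 1.24 (limma adjusted p = 9.2e-04) at 96 h in growth media, and differed by 0.96 and 0.28 in differentiation media. It was chosen after its values were seen, and its probe ranked between rank 3 and rank 748 of the 58201 probes of an array. PHLDA2, which restrains placental growth, was higher by 1.43 at 24 h (SE 0.42, limma adjusted p = 0.016), a call lost without replicate 2 of ZNF148 siRNA (0.58, limma adjusted p = 0.067). It was lost too with other scalings or background correction of the scanner signals (0.55 to 0.73), with only the arrays compared (limma adjusted p = 0.26) and with the methods' test. KCNQ1, a potassium channel gene, was below background in controls at 96 h in growth media, and ZNF148 siRNA raised it at least 6.84-fold. KCNQ1OT1, an antisense noncoding RNA, fell by -1.80 (SE 0.16, limma adjusted p = 7.7e-09) at 96 h in differentiation media.

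Beside PEG10, ASB4, a component of a ubiquitin ligase, was below background in controls at 96 h in growth media and at 48 h in differentiation media, and ZNF148 siRNA raised it at least 128-fold and 66.8-fold. TFPI2, a secreted inhibitor of serine proteases, lies near PEG10 too and fell, by -2.99 (SE 0.10, limma adjusted p = 6.9e-15) at 48 h and -2.01 at 96 h in growth media and by -2.16 at 48 h in differentiation media. COBL, an actin nucleator beside GRB10, rose by 5.32 (SE 0.85, limma adjusted p = 2.0e-05), 4.99 and 5.98 at 48 and 96 h in growth media and 48 h in differentiation media. The first was 7.06 without the control array that stood apart (limma adjusted p = 7.0e-12). CPA4, a carboxypeptidase gene near MEST, fell by -1.94 (SE 0.19, limma adjusted p = 3.9e-08) and -3.12 (limma adjusted p = 9.5e-12) at 48 h in growth and differentiation media.

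Of imprinted genes elsewhere, FAM50B fell in all 5 comparisons, by -1.66, -1.49 and -1.37 in growth media and -1.90 and -1.88 in differentiation media (SE 0.10 or 0.11, limma adjusted p from 5.0e-13 to 1.8e-09). L3MBTL1, a chromatin-binding protein, fell by -1.31 at 24 h and by -2.80 and -1.78 in differentiation media. With normexp background correction the first and the last came to -0.93 and -0.96 and were not called. DIRAS3, a small GTPase that slows growth, fell by -2.17 (SE 0.13, limma adjusted p = 2.7e-12) at 48 h in differentiation media. GNAS-AS1 was below background in controls in differentiation media and at least 12.0-fold higher at 48 h and 3.68-fold at 96 h with ZNF148 siRNA. ATP10A, a phospholipid flippase gene, rose by 3.37 (SE 0.32, limma adjusted p = 1.4e-08) at 96 h in differentiation media.

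**Figure D4:**
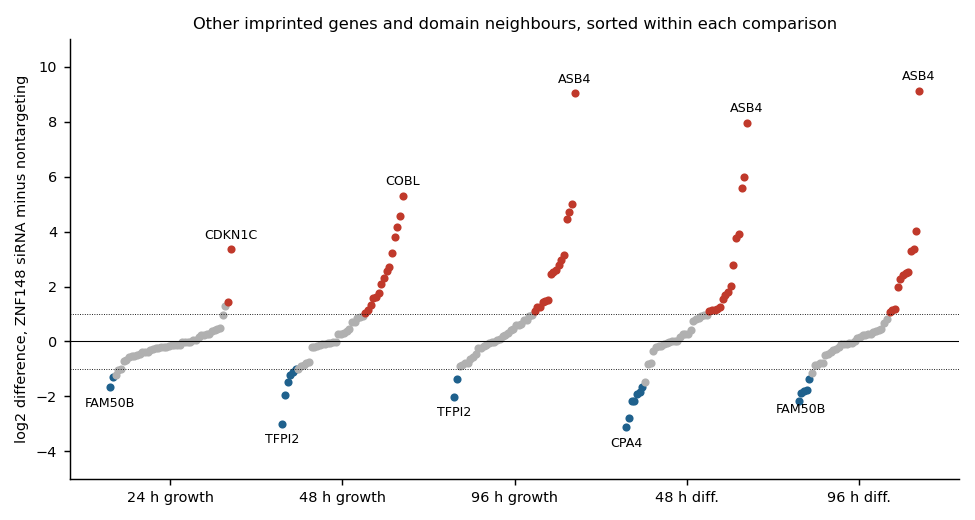
Log2 difference between ZNF148 siRNA and nontargeting siRNA (vertical axis) of the 46 other imprinted genes and domain neighbours, sorted within each of the 5 comparisons (horizontal axis), with the extreme named genes labelled. Red points were called higher, blue points lower and grey points were not called, and dotted lines mark 2-fold. The points called number 4 at 24 h and 21, 18, 22 and 17 in the later comparisons.

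Proteins that act with these genes were taken as a list of 11, namely the receptors and adaptors that GRB10 binds or acts beside, the Notch receptors and sheddase of DLK1, and the IGF2 mRNA-binding proteins, which also bind H19. Of the 11, all tested, 3 were called higher and 0 lower with ZNF148 siRNA at 24 h. In growth media 7 were higher and 1 lower at 48 h, then 3 higher and 1 lower at 96 h. In differentiation media the counts were 2 higher with 2 lower at 48 h, then 1 higher with 2 lower at 96 h. The shares of all genes called in these comparisons were 5.47%, 23.9%, 24.7%, 32.3% and 23.2%. IGF1R rose by 1.05 (limma adjusted p = 3.6e-07) at 24 h and 1.17 at 48 h in growth media. INSR, the insulin receptor gene, rose by 1.76 and 1.46 at 48 and 96 h in growth media and by 1.36 at 96 h in differentiation media. IRS1 rose by 1.12 at 48 h in growth and 1.29 at 48 h in differentiation media, where IRS2 fell by -1.11. IGF2BP1 rose by 1.32, 1.32 and 1.33 in growth media and 1.40 at 48 h in differentiation media, and IGF2BP2 by 1.03 at 48 h in growth media.

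ADAM17, the sheddase of DLK1, rose by 1.30 (SE 0.11, limma adjusted p = 2.1e-09) at 48 h in growth media. NOTCH2 fell at every time from 48 h on, by -1.27 and -1.38 in growth media and -1.997 and -1.80 in differentiation media (SE 0.09 or 0.10). NOTCH3 rose by 1.89, 3.03 and 1.501 in growth media (3.81 at 48 h without the control array that stood apart) and fell by -1.62 (SE 0.35, limma adjusted p = 5.9e-04) at 96 h in differentiation media. NOTCH1 and IGF2BP3 were not called in any of the 5 comparisons, with differences from -0.13 to 0.43 and from -0.57 to 0.43.

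Across the 10 group means, as a description over groups that share arrays with the comparisons above, the genes among the 8 most alike were PEG10 and PLAGL1 (Pearson r = 0.90), MEG3 and DLK1, which lie in one domain (r = 0.855), and PEG10 and GRB10 (r = 0.84). MEST ran against DLK1 (r = -0.71) and against PEG10 and MEG3 (r = -0.576 and -0.575). Over the other 18431 genes with a tested probe, LITATS1 and LINC01160 were among those most like H19 (r = 0.98 each), and MYPN and MTX2 among those most like MEG3 (r = 0.98 each). DLK1 was most like DNMT3L, ATP1B4 and MAP2 (r = 0.99 each), and PEG10 most like TP53I11 and ACSS2 (r = 0.98 each) and GORASP2 (r = 0.97). For MEST they were UBN1 (r = 0.97), LINC00965 and RIMBP3 (r = 0.94 each), for PLAGL1 CNOT11, DDAH1 and ARG2 (r = 0.98 each), and for GRB10 MPRIP (r = 0.97), ARIH2 and AGK (r = 0.95 each). For PEG3, MAGEB17, CPA5 and TRIM39 came first (r = 0.87 to 0.88), with PEG3 itself near background.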

How the data were processed

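RNA of 29 cultures was hybridized to 1-colour Agilent human expression arrays. The intensity values deposited by the authors are the processed signals of each spot on a linear scale, made with Agilent Feature Extraction (10.7.3.1 in the file headers) and not scaled between arrays. Used here were log2 values from the authors' deposited series matrix, whose columns all share 1 distribution. Each column correlated best with its own array (r of at least 0.9951). Array headers name the build hg19 on 14 arrays and none on 15, so no probe coordinates are given. Promoter sequences and their coordinates are from RefSeq (GRCh38.p14). Gene names came from RefSeq accessions, which named 31104 of 58201 probes. Tests were run on the 38839 probes that rose well above background on 2 or more arrays, in R 4.3.3 with limma 3.58.1, which fitted the 10 group means at once over all arrays, by two-sided moderated tests with Benjamini-Hochberg adjustment over all tested probes. A lower bound on a fold change sets the mean of the measured group against the lowest signal well above background on each array of the other. On simulated data for 24 h with 200 of 38839 probes changed by 2 on the log2 scale, 147 were recovered with 1 false call. The same for 96 h in growth media gave 142 recovered with 4 false calls. The simulated noise was normal and independent between probes, with no array that stood apart and a small share of probes changed. These numbers thus do not give the recovery or false calls in the real data. The genes and gene lists were chosen with earlier results of these data known. The 8 genes were all named. Of other imprinted genes, the 3 largest rises and falls past the threshold and well above background on every array of either group were named in each comparison between siRNAs. The genes whose group means were most like those of each of the 8 were named too, except some that are not reported here. The alternatives tried were other scalings of the deposited intensity values, other filters, fits of fewer arrays, blocks for replicate number and slide, the mean of a gene's probes and the methods' test. The number of arrays limits the precision.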

Additional observations from a re-analysis of the deposited data

Results flagged for a closer look

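The effect of ZNF148 siRNA differed between conditions, past limma's adjusted p of 0.05 and 2-fold, in 16 tests of the difference itself. Each of the 8 genes was tested in each comparison. Of all genes, 20.5% were called between 48 and 24 h and 22.7% between 96 and 24 h. Between media 17.1% were called at 48 h and 12.4% at 96 h. Between 48 and 24 h in growth media the log2 differences of effects were 3.71 for MEG3, 2.16 for DLK1, 1.79 for PEG10, -1.13 for MEST and 1.31 for GRB10. Between 96 and 24 h they were 4.75 for MEG3, 4.77 for DLK1, 2.21 for PEG10, -1.29 for MEST and 1.16 for GRB10. Without the control array that stood apart, those between 48 and 24 h were 4.50 for MEG3, 2.56 for DLK1, 2.45 for PEG10, -1.104 for MEST and 1.708 for GRB10. All 24 h arrays lay on a slide and scan of their own, from which the hour cannot be told apart here. Between differentiation and growth media they were 1.25 for PEG10, -1.73 for MEST and -1.10 for GRB10 at 48 h, and -2.86 for MEG3, 1.61 for PEG10 and -1.13 for MEST at 96 h. The 2 GRB10 probes disagreed at 48 h, the second giving 0.08, and PEG10 at 48 h stood at 0.59 without the control array that stood apart.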

How the results depend on the processing

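Of the gene values that the alternatives were applied to, 7 changed sign, and none of them was called. They were H19 at 96 h in differentiation media with 75th percentile scaling (0.20), MEST at 48 h in growth media with normexp background correction (-0.0374), without control replicate 3 (-0.0428) and without ZNF148 siRNA replicate 2 (-0.0141), PEG3 at 96 h in differentiation media with the mean of its probes (0.33), PEG3 at 48 h in growth media without control replicate 1 (-0.17), and DLK1 at 24 h without ZNF148 siRNA replicate 1 (0.0249). Over all arrays left out singly, MEST at 48 h ran from -0.0428 to 0.0401, PEG3 at 48 h from -0.17 to 0.34 and DLK1 at 24 h from -0.23 to 0.0249. Of the other gene values 1839 kept their side of the threshold, 38 fell short of it and 35 passed it.

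Of the counts, 355 stayed within 1.5 times the original. With 75th percentile scaling, 2 of the 8 genes were called between siRNAs at 24 h, 2 between media in controls at 48 h, 1 between 48 and 96 h in controls in differentiation media and 2 with ZNF148 siRNA there. With normexp background correction the last was 2 and the count of other imprinted genes at 24 h was 2. With the mean of a gene's probes, 1 was called between media in controls at 48 h, 1 from 48 to 96 h in controls in differentiation media, and 0 by limma with ZNF148 siRNA in either media, where DLK1 rose by 1.81 and 1.63 on the log2 scale (adjusted p = 0.072 and 0.094). With slide as a block, 1 was called from 48 to 96 h in controls in differentiation media, and with only the arrays compared, 1 effect differed between media at 48 h. Leaving out each array in turn gave 0 to 3 genes between media in controls at 48 h, 0 to 1 from 48 to 96 h in controls in growth media, 1 to 2 in controls and 1 to 2 with ZNF148 siRNA in differentiation media, 3 to 6 between siRNAs at 96 h in differentiation media, and 2 to 4 effects that differed between media at 48 h.

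With the replicate number as a block, 4 of the 8 genes were called at 48 h in growth media, as without it, and all 22 counts and 112 gene values kept their call. Over 9 comparisons the correlations of same-numbered arrays ran from -0.16 to 0.123, and in no comparison were all over 0.1, so the numbers were taken only as names. Numbers are those of the titles, and for ZNF148 siRNA at 48 h in growth media the descriptions give 3, 4 and 5, so the pairing may be wrong there. Signals near background limit PEG3 and the second DLK1 probe.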
